A study of Homo sapiens with 4 samples.

Results

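The aminoacyl-tRNA synthetases of LNCaP cells are described here as 39 genes out of 19205 in the expression table, chosen by symbol. They are 20 genes for enzymes that work in the cytosol, 3 genes for scaffold proteins that bind some of those enzymes (AIMP1, AIMP2 and EEF1E1) and 16 genes for enzymes that work in mitochondria, whose names end in 2. All 39 were present and all 39 had enough counts to be tested. RNA selected with oligo(dT) was sequenced in 4 libraries from LNCaP, a human line of prostate cancer cells that respond to androgen, grown in RPMI-1640 with serum. There were 2 libraries of cells overexpressing HOXD13, a homeobox transcription factor, and 2 libraries of cells carrying an empty vector. Cells of both groups had been infected with lentivirus and selected with puromycin. The comparison asks which transcripts differ when HOXD13 is overexpressed. Separate cultures are not named in the labels for the 2 libraries of a group, and p-values therefore cover no more than the spread between libraries, possibly a technical one.

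An aminoacyl-tRNA synthetase joins an amino acid to its matching tRNA, at the cost of ATP, and so sets the genetic code at the point where it is read. Most animals keep separate sets of nuclear genes for the cytosolic and the mitochondrial enzymes. GARS and KARS are exceptions and each encode both forms, and glutaminyl-tRNA of mitochondria is made by a detour through EARS2 and an amidotransferase. Several cytosolic enzymes are held together with the 3 scaffold proteins in the multi-tRNA synthetase complex. When amino acids are short or the endoplasmic reticulum is stressed, the transcription factor ATF4 induces many cytosolic synthetase genes. It does so through an element known as the C/EBP-ATF response element.

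Total expected counts were 8530487 and 8335067 in HOXD13 libraries and 7662978 and 6881110 in empty-vector libraries. HOXD13 (gene ID 3239) had 88 and 104 expected counts in HOXD13 libraries and 0 in both empty-vector libraries, so it was at least 55.2-fold higher, with 3 counts summed over both empty-vector libraries taken as the floor, which covers counting error only. Of 8 luminal prostate markers, among them KLK3 and KRT8, all were detected, and their summed level was 8860 to 9050 CPM (counts scaled to library size) in HOXD13 libraries and 6630 to 6670 CPM in empty-vector libraries. Fibroblast, leukocyte and endothelial markers summed to at most 68.1 CPM per list in HOXD13 libraries and 65.4 CPM in empty-vector libraries. The endothelial list summed to 37.5 to 38.1 CPM in HOXD13 libraries and 26 to 27.4 CPM in empty-vector libraries. Of the luminal markers 5 rose and 1 fell (adjusted p under 0.05), against 7.91% of all tested genes called higher and 8.11% lower. The part of these markers in the results below was not tested. CD3E was at 0 in all 4 libraries, and COL1A2, DCN, PDGFRA and CDH5 were not in the expression table. The fibroblast sum thus rests on 3 of 6 listed genes and the endothelial sum on 5 of 6. In bulk RNA, fewer cells of a kind and less RNA per cell cannot be told apart.

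Cytosolic synthetase transcripts were lower in HOXD13 libraries almost across the set. Of 20 cytosolic enzyme genes, 17 fell, 0 rose and 3 did not pass the test, at a median log2 fold change of -0.19, a median difference of -12.5%. The scaffold gene AIMP2 also fell, and the other 2 scaffold genes were not called. Of 16 mitochondrial enzyme genes, 3 fell, 0 rose and 13 were not called, at a median of -0.14. The threshold for a call was an adjusted p of 0.05 (edgeR quasi-likelihood test, Benjamini-Hochberg over 14112 genes), and of these genes 8.11% were called lower and 7.91% higher, at a median log2 fold change of 0.00. No member rose even at an unadjusted p under 0.05 in edgeR, DESeq2 or limma. Highly expressed genes of any kind were called in a larger share than others, in both directions. Among the 3575 tested genes within the level range of the cytosolic enzymes (69.8 to 478 CPM) 20.5% were called lower and 15.1% higher, at a median of -0.04. In the highest of 10 bins of level, which held 13 of the 20 cytosolic enzymes, 34.5% of genes were called lower. Within the range of the mitochondrial enzymes (9.19 to 336 CPM) 8.85% of 10390 genes were called lower and 8.93% higher, at a median of -0.01. The part of level in the synthetase result was not tested beyond the removal of level and length trends from each library, which left 12 cytosolic and 3 mitochondrial enzyme genes called lower, against 6.4% of all tested genes. Their medians were then -0.16 and -0.14, and all 20 cytosolic fold changes stayed below 0. The share called lower among genes of like level was not computed after this removal.

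**Figure D1:**
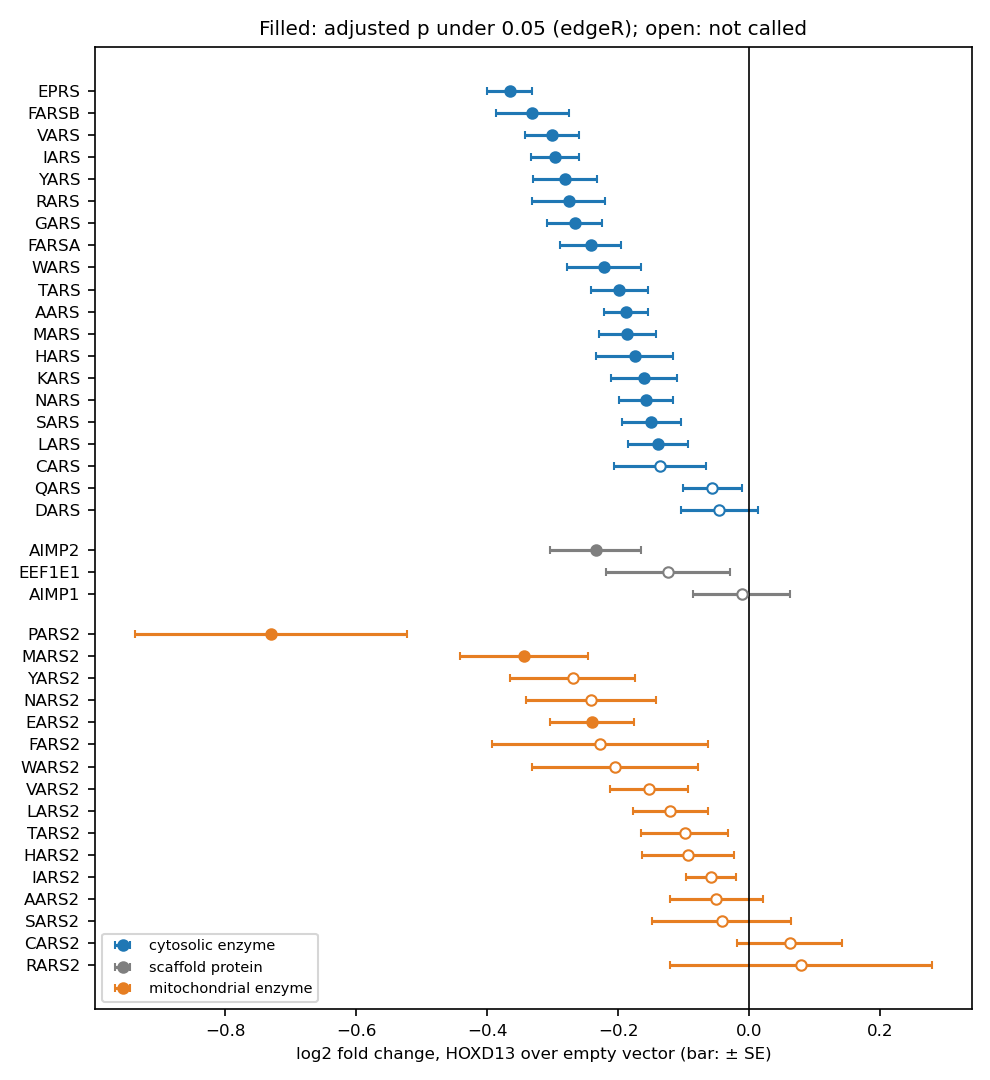
Log2 fold change of each member, HOXD13 over empty vector, with bars of 1 standard error, for cytosolic enzymes, scaffold proteins and mitochondrial enzymes; filled points passed an adjusted p under 0.05 and open points did not. All 20 cytosolic points lie below 0, from -0.37 for EPRS to -0.05 for DARS, and the mitochondrial points run from -0.73 for PARS2 to 0.08 for RARS2.

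In all 20 cytosolic genes the fold change was below 0, and in 19 of them the groups did not overlap on the CPM scale, with HOXD13 libraries the lower ones. The same held for 2 of 3 scaffold genes and 13 of 16 mitochondrial genes. In CARS2 both HOXD13 libraries lay above. Groups did not overlap in the lower direction for 27.2% of all tested genes and in the higher direction for 27.7%. Within the level range of the cytosolic enzymes they did not overlap in the lower direction for 1559 of 3575 genes, and in the higher for 993. Within the range of the mitochondrial enzymes the counts were 3168 lower and 2845 higher of 10390 genes. The 20 cytosolic genes summed to 1294.4 and 1287.5 FPKM (fragments scaled to gene length and library size) in HOXD13 libraries, against 1472.4 and 1495.9 FPKM in empty-vector libraries, a ratio of 0.870. The 16 mitochondrial genes summed to 334.4 and 338.81 FPKM in HOXD13 libraries, against 357.11 and 366.02 FPKM in empty-vector libraries, a ratio of 0.931. IARS2 alone made up a large part of that mitochondrial sum, and without it the ratio was 0.917. All 39 members took 0.517% and 0.516% of the expected counts in HOXD13 libraries and 0.584% and 0.592% in empty-vector libraries.

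**Figure D2:**
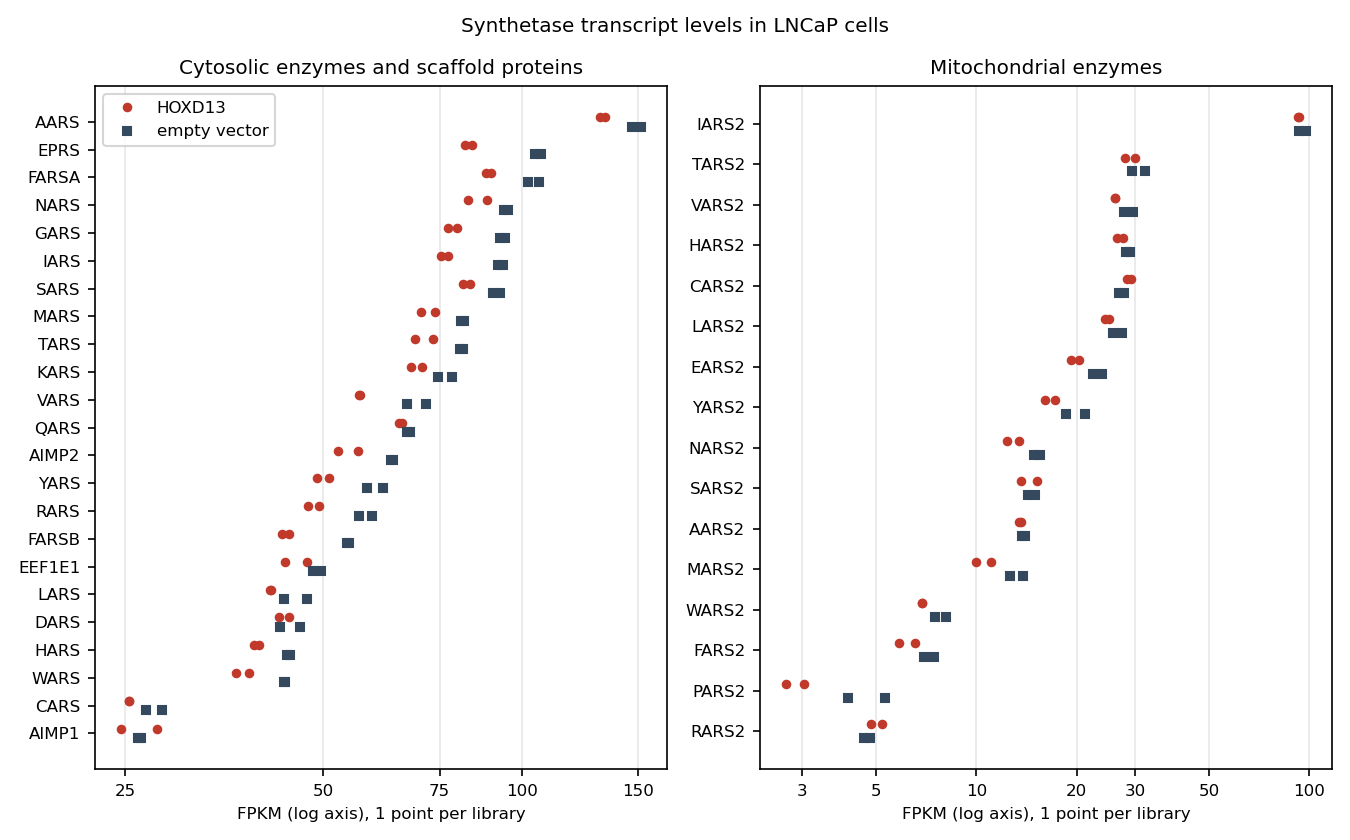
FPKM of each member in each library on a log axis, with HOXD13 libraries as circles above empty-vector libraries as squares, sorted by the empty-vector mean within cytosolic and scaffold genes (left) and mitochondrial genes (right). Circles sit left of squares for all cytosolic enzymes except DARS, whose groups overlap, and AARS is the highest gene in both groups.

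Promoter sequence was not used to choose the members and was read next. RefSeq promoter windows (GRCh38.p14, 250 bases before to 50 after a start site) matched 33 of the 39 members, with 16 cytosolic, 3 scaffold and 14 mitochondrial genes. DARS, LARS, VARS, YARS, AARS2 and VARS2 had no matched window. The core of the C/EBP-ATF response element, searched as TGATGNAA on both strands, was found in a window of 7 of 16 cytosolic genes, 1 of 14 mitochondrial genes and 0 of 3 scaffold genes, against 4.46% of 27305 genes with a window. The windows below hold these matches and are shown because 6 of the 7 cytosolic ones carry the same 8 letters. Each line runs 5′ to 3′ on the gene's strand over 60 bases, with the match in capitals, which reads TTGCATCA, or TTTCATCA in GARS, where the element lies on the opposite strand.
IARS (chr9:92293677-92293736, minus strand): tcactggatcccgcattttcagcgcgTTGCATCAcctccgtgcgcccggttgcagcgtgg
GARS (chr7:30594819-30594878, plus strand): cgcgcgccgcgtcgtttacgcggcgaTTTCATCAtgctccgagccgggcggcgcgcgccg
TARS (chr5:33440941-33441000, plus strand): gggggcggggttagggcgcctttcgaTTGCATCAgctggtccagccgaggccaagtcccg
AARS (chr16:70289660-70289719, minus strand): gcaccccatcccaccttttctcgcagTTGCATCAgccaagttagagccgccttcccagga
MARS (chr12:57488038-57488097, plus strand): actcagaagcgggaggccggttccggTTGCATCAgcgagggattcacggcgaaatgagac
NARS (chr18:57621789-57621848, minus strand): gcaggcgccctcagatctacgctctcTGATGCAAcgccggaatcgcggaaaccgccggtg
CARS (chr11:3057392-3057451, minus strand): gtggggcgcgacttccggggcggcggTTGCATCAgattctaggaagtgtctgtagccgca
YARS2 (chr12:32756061-32756120, minus strand): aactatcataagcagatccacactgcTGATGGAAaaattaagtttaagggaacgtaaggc

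TGATGCAA with a C in the variable place, a form searched after these windows were seen, was held by 6 of 16 cytosolic genes and 1.08% of all genes. GARS has the match with A in that place and YARS2 the one with G. Matches lay near the start site in IARS, GARS, TARS, MARS, NARS and CARS, and farther upstream in AARS and YARS2. The difference in fold change between cytosolic genes with and without the match was not tested. DARS, LARS, VARS and YARS, which had no matched window, are in neither group. Cytosolic genes with the match had a median log2 fold change of -0.19 and 6 of 7 fell. Those without it had a median of -0.22 and 8 of 9 fell. The share called lower was 8.11% of all tested genes, and 20.5% of those within the level range of the cytosolic enzymes. A match is a description of these letters and not a sign of binding.

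**Figure D3:**
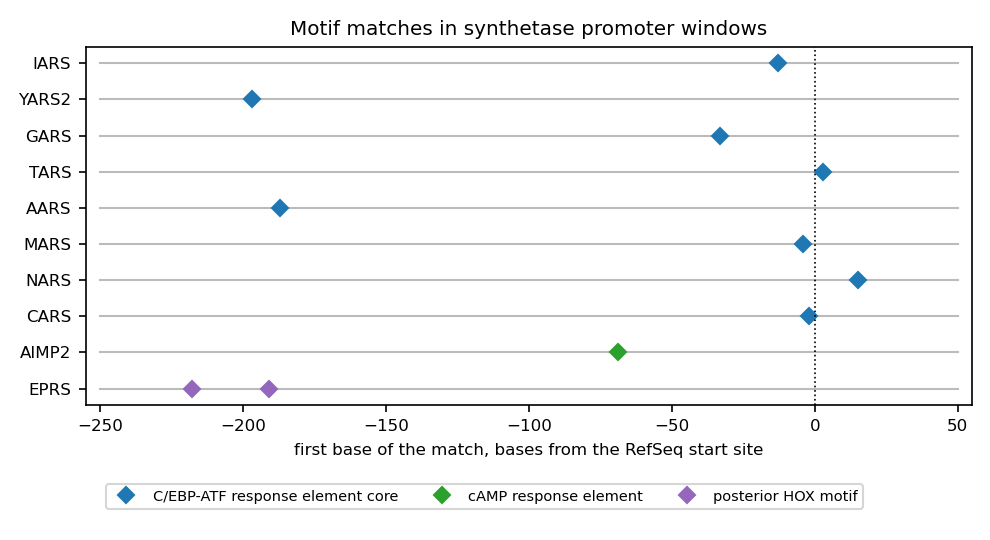
Position of motif matches relative to the RefSeq start site (dotted line) in windows of 250 bases before to 50 after it, 1 line per gene. Matches of the C/EBP-ATF response element core in IARS, GARS, TARS, MARS, NARS and CARS lie between positions -33 and 15, those of AARS and YARS2 lie at -187 and -197, the posterior HOX motif occurs at 2 places in EPRS, and the cAMP response element occurs in AIMP2.

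Of the 10 motifs searched, the others were also read on both strands. Of motifs known for HOX proteins of the HOXD13 group, TCGTAAA was found in EPRS, where it occurs on both strands, and in 0.663% of all genes, and CAATAAA in 0 members and 4.93% of all genes. The E-box CACGTG was found in 1 cytosolic gene (IARS), 1 scaffold gene (AIMP2) and 3 mitochondrial genes (CARS2, EARS2 and MARS2), against 8.77% of all genes. The cAMP response element TGACGTCA was found in AIMP2 alone among the members, against 2.25% of all genes. GCGCATGC, a motif of NRF1, was found in 0 cytosolic and 2 mitochondrial genes (MARS2 and YARS2) and 3.68% of all genes, and the shorter TGCGCA, whose matches can overlap it, in 4 cytosolic, 1 scaffold and 4 mitochondrial genes and 9.76% of all genes. The ETS core GGAAGT was found in 5 cytosolic, 2 scaffold and 4 mitochondrial genes and 26.6% of all genes, and CCAAT in 7, 3 and 9 of them and 39.7% of all genes. The ETS matches of HARS and HARS2, which are divergent neighbours, are the same sites and count in both classes. The EPRS window (same build, 60 bases, matches of TCGTAAA or its complement in capitals) is shown because EPRS had the largest fall of the cytosolic enzymes.
EPRS (chr1:220046690-220046749, minus strand): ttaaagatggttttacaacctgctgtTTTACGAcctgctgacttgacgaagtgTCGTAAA

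Among the 8 cytosolic enzymes of the multi-tRNA synthetase complex, 6 fell and 2 were not called, at a median log2 fold change of -0.17. Of all tested genes 8.11% were called lower, and 20.5% of those within the level range of the cytosolic enzymes. EPRS, which joins both glutamate and proline to their tRNAs, was at 83.9 and 81.92 FPKM in HOXD13 libraries, against 104.77 and 106.81 FPKM in empty-vector libraries (log2 fold change -0.37, SE 0.034, edgeR adjusted p = 1.42e-09). The fitted difference was -22.4%, and the gap between groups was far wider than that between libraries of a group. IARS, the isoleucine enzyme, was at 75.38 and 77.3 FPKM in HOXD13 libraries, against 92 and 93.57 FPKM in empty-vector libraries (log2 fold change -0.30, SE 0.0363, adjusted p = 3.96e-07). RARS, the arginine enzyme, was at 49.25 and 47.38 FPKM in HOXD13 libraries, against 56.62 and 59.27 FPKM in empty-vector libraries (log2 fold change -0.28, adjusted p = 0.000587). None of these 3 genes had overlapping groups. MARS, the methionine enzyme, was at 70.28 and 73.91 FPKM in HOXD13 libraries, against 80.69 and 81.71 FPKM in empty-vector libraries (log2 fold change -0.19, adjusted p = 0.00271). KARS, which serves lysine in both compartments, was at 67.79 and 70.48 FPKM in HOXD13 libraries, against 74.48 and 78.28 FPKM in empty-vector libraries (log2 fold change -0.16, adjusted p = 0.025).

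LARS, the leucine enzyme and a leucine sensor of the mTORC1 pathway, was at 41.65 and 41.42 FPKM in HOXD13 libraries, against 43.51 and 47.14 FPKM in empty-vector libraries (log2 fold change -0.14, adjusted p = 0.0329). Its HOXD13 libraries were alike and its empty-vector libraries were not, and without empty-vector replicate 2 the log2 fold change was -0.08 (adjusted p = 0.451). The LARS call was also lost without HOXD13 replicate 1 (adjusted p = 0.0529), and the KARS call without HOXD13 replicate 1 (0.143) or empty-vector replicate 2 (0.235). QARS, the glutamine enzyme, was at 65.01 and 65.74 FPKM in HOXD13 libraries and 67.65 and 66.88 FPKM in empty-vector libraries (log2 fold change -0.06, SE 0.045, adjusted p = 0.457). DARS, the aspartate enzyme, was at 44.32 and 42.76 FPKM in HOXD13 libraries and 42.96 and 46.08 FPKM in empty-vector libraries (log2 fold change -0.05, SE 0.0591, adjusted p = 0.682). These were the 2 enzyme genes of the complex that were not called, and the DARS groups overlapped. The sign of DARS turned without empty-vector replicate 2 (log2 fold change 0.00). LARS and DARS had fractional counts, which shows reads shared with other genes, and their levels are uncertain to that extent.

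The 3 scaffold genes of the complex moved unequally. AIMP2 was at 56.35 and 52.64 FPKM in HOXD13 libraries, against 63.66 and 63.27 FPKM in empty-vector libraries (log2 fold change -0.23, SE 0.0694, adjusted p = 0.0176). It did not pass without HOXD13 replicate 2 (adjusted p = 0.124), without empty-vector replicate 1 (0.0861) or 2 (0.0657), and with level and length trends removed (0.12). EEF1E1, also called AIMP3, was at 43.66 and 47.22 FPKM in HOXD13 libraries and 49.65 and 48.22 FPKM in empty-vector libraries (log2 fold change -0.12, SE 0.0945, adjusted p = 0.429), and shares reads with other genes. AIMP1 was at 24.66 and 27.94 FPKM in HOXD13 libraries and 26.4 and 26.17 FPKM in empty-vector libraries (log2 fold change -0.01, SE 0.0741, adjusted p = 0.947). Its 2 HOXD13 libraries lay on either side of the empty-vector libraries, and without HOXD13 replicate 1 its log2 fold change was 0.08.

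Of the 12 cytosolic genes whose products lie outside the complex, 11 fell and 1 was not called, at a median log2 fold change of -0.21. The share called lower was 8.11% of all tested genes, and 20.5% of those within the level range of the cytosolic enzymes. Both subunits of the phenylalanine enzyme fell. FARSB, the beta subunit, was at 43.22 and 44.39 FPKM in HOXD13 libraries, against 54.35 and 54.73 FPKM in empty-vector libraries (log2 fold change -0.33, SE 0.056, adjusted p = 6.7e-05). FARSA, the alpha subunit, was at 88.14 and 89.61 FPKM in HOXD13 libraries, against 101.97 and 106.23 FPKM in empty-vector libraries (log2 fold change -0.24, adjusted p = 0.000342). VARS, the valine enzyme, which associates with an elongation factor complex, was at 56.77 and 56.63 FPKM in HOXD13 libraries, against 66.99 and 71.42 FPKM in empty-vector libraries (log2 fold change -0.30, SE 0.0414, adjusted p = 2.94e-06). The HOXD13 libraries of VARS were nearly equal, and both lay well below the lower empty-vector library. YARS, the tyrosine enzyme, was at 48.83 and 50.93 FPKM in HOXD13 libraries, against 61.59 and 58.29 FPKM in empty-vector libraries (log2 fold change -0.28, adjusted p = 7.99e-05). GARS, which serves glycine in both compartments, was at 79.58 and 77.27 FPKM in HOXD13 libraries, against 92.61 and 94.2 FPKM in empty-vector libraries (log2 fold change -0.27, adjusted p = 2.31e-05).

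Further genes of this group differed by less. WARS, the tryptophan enzyme, which interferon-gamma is known to induce, was at 38.59 and 36.83 FPKM in HOXD13 libraries, against 43.67 and 43.61 FPKM in empty-vector libraries (log2 fold change -0.22, adjusted p = 0.00605). TARS, the threonine enzyme, was at 73.27 and 68.81 FPKM in HOXD13 libraries, against 80.65 and 81.36 FPKM in empty-vector libraries (log2 fold change -0.20, adjusted p = 0.00155). AARS, the alanine enzyme, was at 133.38 and 131.31 FPKM in HOXD13 libraries, against 151.6 and 146.79 FPKM in empty-vector libraries (log2 fold change -0.19, SE 0.0342, adjusted p = 0.000174). It was the most abundant synthetase transcript per length in all 4 libraries. NARS, the asparagine enzyme, was at 88.45 and 82.92 FPKM in HOXD13 libraries, against 95.16 and 94.01 FPKM in empty-vector libraries (log2 fold change -0.16, adjusted p = 0.00814). SARS, the serine enzyme, was at 81.32 and 83.44 FPKM in HOXD13 libraries, against 90.25 and 92.59 FPKM in empty-vector libraries (log2 fold change -0.15, adjusted p = 0.0213), with some reads shared with other genes. HARS, the histidine enzyme, was at 39.87 and 39.18 FPKM in HOXD13 libraries, against 43.96 and 44.47 FPKM in empty-vector libraries (log2 fold change -0.18, adjusted p = 0.0387). These 6 genes had groups that did not overlap, with HOXD13 libraries the lower ones.

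CARS, the cysteine enzyme, was at 25.4 and 25.32 FPKM in HOXD13 libraries and 26.93 and 28.5 FPKM in empty-vector libraries (log2 fold change -0.14, SE 0.0702, adjusted p = 0.205). It was the least abundant cytosolic enzyme gene and the gene of this group that was not called. The HARS call was lost whichever library was left out, with adjusted p from 0.0787 without HOXD13 replicate 1 and 0.12 without HOXD13 replicate 2 to 0.123 and 0.183 without empty-vector replicates 1 and 2. The NARS call was lost without HOXD13 replicate 2 (0.0818) or empty-vector replicate 1 (0.0686). The SARS call was lost without HOXD13 replicate 1 (0.0905) or empty-vector replicates 1 (0.0565) or 2 (0.189), and with level and length trends removed its log2 fold change was -0.10 (0.166). EPRS, FARSA, FARSB, GARS, IARS, RARS, VARS and YARS kept their calls under all 14 alternatives tried, and they were the 8 genes of 39 that did. Calls of AARS, MARS, TARS and WARS were lost under both limma fits alone. With level and length trends removed, the calls of HARS (adjusted p = 0.101), KARS (0.137), LARS (0.0541) and NARS (0.0595) were lost as well.

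Cytosolic genes listed as ATF4-linked, and those not so listed, both fell for the most part. Of the 13 listed genes (AARS, CARS, EPRS, GARS, IARS, LARS, MARS, NARS, SARS, TARS, VARS, WARS and YARS) 12 fell, at a median log2 fold change of -0.20. Of the other 7, 5 fell, at a median of -0.18. The difference between these lists was not tested. ATF4 itself was at 263.71 and 269.07 FPKM in HOXD13 libraries, against 288.77 and 297.3 FPKM in empty-vector libraries (log2 fold change -0.15, SE 0.036, adjusted p = 0.00301). In a list of 26 ATF4 pathway genes without synthetases, 9 fell, 2 rose and 15 were not called, at a median of -0.13. Of all tested genes 8.11% were called lower and 7.91% higher. In the highest of 10 bins of level, 34.5% of genes of any kind were called lower. The part of level in the ATF4 count was not tested. The largest called falls of the ATF4 list were in CTH (log2 fold change -0.65), which makes cysteine from cystathionine, ASNS (-0.32), the asparagine synthetase, PSAT1 (-0.27) of serine synthesis and the stress protein gene NUPR1 (-0.23). CTH rested on 73 and 71 expected counts in HOXD13 libraries and 87 and 106 in empty-vector libraries. Both CTH and ASNS share reads with other genes. STC2 (0.17) and the cationic amino acid transporter gene SLC7A1 (0.12) rose. DDIT3, a stress-induced partner of ATF4, was at 18.19 and 18.67 FPKM in HOXD13 libraries and 15.9 and 20.54 FPKM in empty-vector libraries (adjusted p = 0.89).

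Of 17 other genes that handle tRNA or its charging, 4 fell, 0 rose and 13 were not called, at a median log2 fold change of -0.06. Of all tested genes 8.11% were called lower and 7.91% higher. In the highest of 10 bins of level, where XPOT, EEF1A1 and EEF1A2 lie, 34.5% of genes were called lower. QRSL1, a subunit of the mitochondrial amidotransferase, was at 7.09 and 6.32 FPKM in HOXD13 libraries, against 8.69 and 7.99 FPKM in empty-vector libraries (log2 fold change -0.33, adjusted p = 0.0277). XPOT, the nuclear exporter of tRNA, was at 102.62 and 101.07 FPKM in HOXD13 libraries, against 117.57 and 114.64 FPKM in empty-vector libraries (log2 fold change -0.20, adjusted p = 7.49e-05). EEF1A1 (-0.17) and EEF1A2 (-0.17), the elongation factors that carry charged tRNA to the ribosome, also fell. TUFM, the mitochondrial counterpart, had a log2 fold change of -0.05 (adjusted p = 0.501). QRSL1, EEF1A1 and TUFM share reads with other genes.

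The mitochondrial enzyme genes were mostly of low or middling level, and 3 of 16 fell. Within their level range 8.85% of tested genes were called lower. PARS2, the mitochondrial proline enzyme and the gene with the largest fall of all members, was at 2.68 and 3.04 FPKM in HOXD13 libraries, against 4.12 and 5.32 FPKM in empty-vector libraries (log2 fold change -0.73, SE 0.208, adjusted p = 0.0133). This rested on 55 and 61 expected counts in HOXD13 libraries and 76 and 88 in empty-vector libraries. MARS2, the mitochondrial methionine enzyme, was at 9.97 and 11.09 FPKM in HOXD13 libraries, against 12.65 and 13.85 FPKM in empty-vector libraries (log2 fold change -0.34, SE 0.0982, adjusted p = 0.0137). EARS2, the mitochondrial glutamate enzyme, was at 20.31 and 19.19 FPKM in HOXD13 libraries, against 23.83 and 22.38 FPKM in empty-vector libraries (log2 fold change -0.24, SE 0.0644, adjusted p = 0.00862). In all 3 the groups did not overlap, and each call was lost when 1 of certain libraries was left out. PARS2 did not pass without HOXD13 replicate 1 (adjusted p = 0.0806) or empty-vector replicate 2 (0.199), the MARS2 call without the same libraries (0.131 and 0.121), and the EARS2 call without HOXD13 replicate 2 (0.0599) or empty-vector replicate 1 (0.133). With limma 0 mitochondrial genes were called, against 5 lower at an unadjusted p under 0.05. DESeq2 gave no adjusted p for 7 of the 16, PARS2 and MARS2 among them, and called 0 of the other 9, with EARS2 at an adjusted p of 0.0593, against 3 of the 16 lower at an unadjusted p under 0.05.

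YARS2, the mitochondrial tyrosine enzyme, lay just outside the threshold, at 17.25 and 16.03 FPKM in HOXD13 libraries and 18.6 and 21.19 FPKM in empty-vector libraries (log2 fold change -0.27, adjusted p = 0.0506). Without empty-vector replicate 2 its log2 fold change was -0.18, and without empty-vector replicate 1 or HOXD13 replicate 1 it was called (adjusted p = 0.0214 and 0.0464). It was called under 7 of 14 alternatives in all. VARS2 (log2 fold change -0.15, adjusted p = 0.0757) and NARS2 (-0.24, 0.0992), the valine and asparagine enzymes, were next. Log2 fold changes of FARS2 (-0.23), WARS2 (-0.20), LARS2 (-0.12), TARS2 (-0.10) and HARS2 (-0.09), for phenylalanine, tryptophan, leucine, threonine and histidine, were below 0 at adjusted p from 0.164 to 0.425. IARS2, the mitochondrial isoleucine enzyme, stood apart in level at 92.23 and 93.13 FPKM in HOXD13 libraries and 97.62 and 93.29 FPKM in empty-vector libraries (log2 fold change -0.06, SE 0.0382, adjusted p = 0.339). It was among the 4 highest members in both groups, while the next mitochondrial gene, TARS2, averaged 28.9 ± 1.44 FPKM in HOXD13 libraries and 30.7 ± 2.0 FPKM in empty-vector libraries (SD, n = 2 each).

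AARS2 (log2 fold change -0.05) and SARS2 (-0.04), for alanine and serine, were close to 0. CARS2, the cysteine enzyme, was at 28.39 and 29.05 FPKM in HOXD13 libraries and 26.82 and 27.67 FPKM in empty-vector libraries (log2 fold change 0.06, SE 0.0806, adjusted p = 0.681). RARS2, the arginine enzyme, was at 4.84 and 5.21 FPKM in HOXD13 libraries and 4.61 and 4.81 FPKM in empty-vector libraries (log2 fold change 0.08, SE 0.2, adjusted p = 0.847). CARS2 and RARS2 were the 2 members of 39 with a fold change above 0, and neither passed the test. Standard errors of the log2 fold change ran from 0.0382 for IARS2 to 0.208 for PARS2 among the mitochondrial genes. AARS2, TARS2 and YARS2 had reads shared with other genes.

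**Figure D4:**
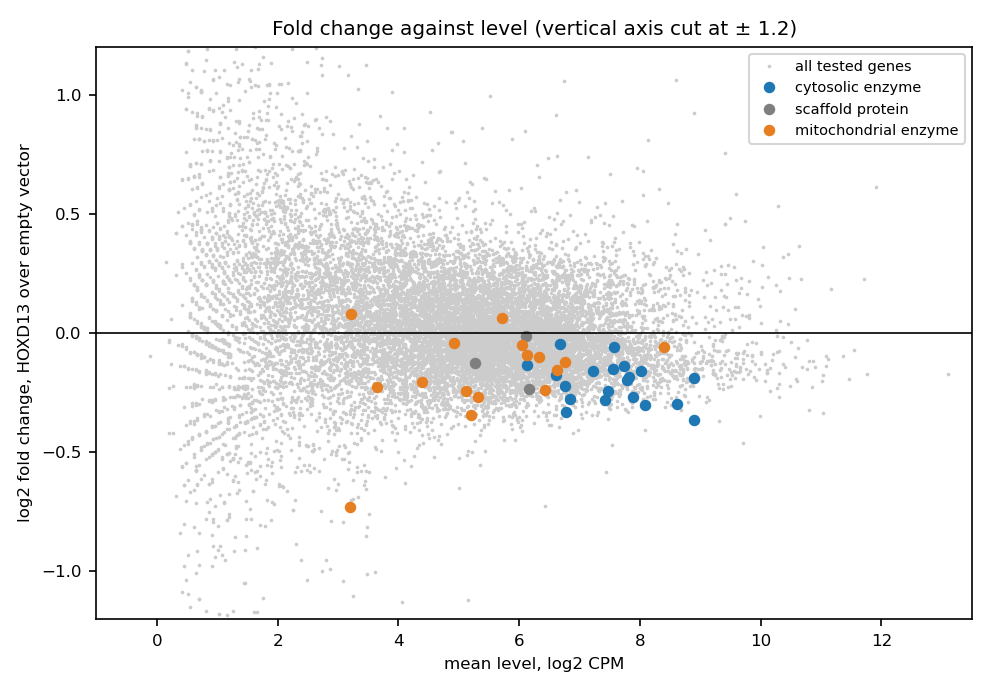
Log2 fold change, HOXD13 over empty vector, against mean level in log2 CPM for all 14112 tested genes (grey) and the members by class; genes beyond the limits of the vertical axis are not drawn. The cytosolic enzymes lie at high levels in the lower part of the grey cloud, and the mitochondrial enzymes spread over lower levels and a wider range of fold changes.

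Each mitochondrial gene was then set beside the cytosolic gene or genes for the same amino acid, which gave 17 pairs, with EPRS and FARS2 in 2 pairs each. The cytosolic fold change was below the mitochondrial one in 14 pairs and above it in 3, with a median difference of -0.10 on the log2 scale. In most pairs the cytosolic gene was also the more abundant one, and the part of level in the 14 pairs was not tested. Removal of level and length trends moved the median log2 fold change of cytosolic enzymes from -0.19 to -0.16. That of mitochondrial enzymes stayed at -0.14. Pair differences were not computed after that removal. The ratio of cytosolic to mitochondrial FPKM was lower in both HOXD13 libraries than in both empty-vector libraries in 9 pairs, higher in 2 and overlapping in 6. How often ratios of other genes separate the groups was not computed, so this count is a description only. For arginine, RARS over RARS2 was 10.2 and 9.09 in HOXD13 libraries, against 12.3 and 12.3 in empty-vector libraries. For isoleucine, IARS over IARS2 was 0.817 and 0.83 in HOXD13 libraries, against 0.942 and 1.00 in empty-vector libraries. In that pair and in the cysteine pair the mitochondrial transcript was the more abundant in both HOXD13 libraries, where CARS over CARS2 was 0.895 and 0.872, against 1.00 and 1.03 in empty-vector libraries. For valine, VARS over VARS2 was 2.18 in both HOXD13 libraries, against 2.41 and 2.42 in empty-vector libraries. Gaps were narrower in the other pairs with a lower ratio. AARS over AARS2 was 9.93 and 9.62 in HOXD13 libraries, against 11.0 and 10.5 in empty-vector libraries. SARS over SARS2 was 5.97 and 5.49 in HOXD13 libraries, against 6.29 and 6.15 in empty-vector libraries. EPRS over EARS2, for glutamate, was 4.13 and 4.27 in HOXD13 libraries, against 4.4 and 4.77 in empty-vector libraries. In the threonine and histidine pairs the nearest libraries of the groups almost met. TARS over TARS2 was 2.45 and 2.47 in HOXD13 libraries, against 2.75 and 2.53 in empty-vector libraries. HARS over HARS2 was 1.51 and 1.42 in HOXD13 libraries, against 1.57 and 1.54 in empty-vector libraries.

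Methionine and proline went the other way, with larger falls in MARS2 and PARS2 than in their cytosolic partners. MARS over MARS2 was 7.05 and 6.66 in HOXD13 libraries, against 6.38 and 5.9 in empty-vector libraries. EPRS over PARS2 was 31.3 and 26.9 in HOXD13 libraries, against 25.4 and 20.1 in empty-vector libraries. For leucine, tryptophan and tyrosine the ratio overlapped between the groups, as it did for asparagine and for both subunits of the phenylalanine enzyme. LARS over LARS2 was 1.72 and 1.66 in HOXD13 libraries and 1.69 and 1.72 in empty-vector libraries. WARS over WARS2 was 5.63 and 5.37 in HOXD13 libraries and 5.39 and 5.78 in empty-vector libraries. YARS over YARS2 was 2.83 and 3.18 in HOXD13 libraries and 3.31 and 2.75 in empty-vector libraries. In these 3 pairs cytosolic and mitochondrial fold changes were close to each other. NARS over NARS2 was 7.14 and 6.16 in HOXD13 libraries and 6.37 and 6.05 in empty-vector libraries. FARSA over FARS2 was 15.0 and 13.7 in HOXD13 libraries and 14.6 and 14.3 in empty-vector libraries, and FARSB over FARS2 was 7.35 and 6.79 in HOXD13 libraries and 7.8 and 7.35 in empty-vector libraries. Over the whole sets, summed cytosolic over summed mitochondrial FPKM was 3.871 and 3.8 in HOXD13 libraries, against 4.123 and 4.087 in empty-vector libraries. The ratios were not tested. With 4 libraries, an exact permutation test of a single ratio could give p = 0.333 at the smallest.

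**Figure D5:**
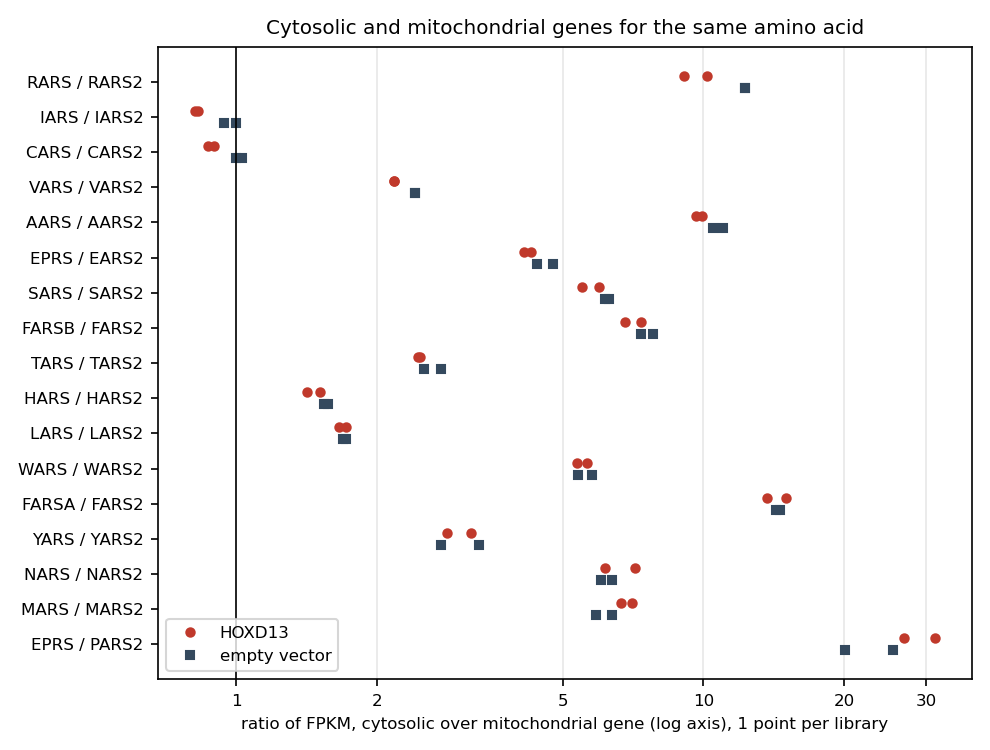
Ratio of cytosolic to mitochondrial FPKM for each pair of genes that serve the same amino acid, on a log axis, with HOXD13 libraries as circles above empty-vector libraries as squares and a line at a ratio of 1. Circles lie left of squares in 9 of 17 pairs and right of them for MARS over MARS2 and EPRS over PARS2.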

How the data were processed

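Libraries were grouped by title. Per the submitters' processing notes, Bowtie2 and RSEM were used, and hg18 and hg19 are named as builds. Their roles and versions are not given in sources used here, so no file coordinates are printed. The deposited tables hold expected counts per gene, in which RSEM divides shared reads, and FPKM, per the file headers. A gene missing from a library's table was set to 0. Deposited gene lengths entered the length trends. Rounded expected counts were fitted in edgeR 4.0.16 under R 4.3.3 (robust quasi-likelihood test, TMM, filterByExpr). A standard error is the absolute log2 fold change over the square root of F. Replicate counts differed by more than sampling noise (chi-square over degrees of freedom 1.76 for HOXD13 and 1.57 for empty vector). The fit was tested on simulated data. Alternatives used DESeq2 1.42.0, limma 3.58.1 on log2(FPKM + pseudocount), other filters, a replicate block, left-out libraries and trend removal (mgcv 1.9.3, GC from GENCODE transcripts). All members are named, with library values for those called and a ratio for each pair, and of each other list up to 4 called genes by absolute log2 fold change. ATF4, DDIT3, STC2, SLC7A1 and TUFM lie outside this rule and were picked with their values known. The members, lists and motifs were chosen with earlier results of these data known. Promoters came from RefSeq, GRCh38.p14; a gene with several start sites counted once. Of the luminal marker list, 1 gene is not reported here.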

Additional observations from a re-analysis of the deposited data

How the results depend on the processing

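Of 39 members, 21 were called lower, 17 of them cytosolic and 3 mitochondrial. Members called lower numbered 13 with the DESeq2 Wald test and 8 with limma on log2(FPKM + 1) or log2(FPKM + 0.1), and 14 to 17 with 1 library left out. Cytosolic enzymes called lower numbered 8 with limma at either pseudocount, 12 with level and length trends removed, with or without GC (the GC term was added after the data were seen), and 13 to 15 with 1 library left out. Mitochondrial enzymes called lower numbered 0 with limma, 0 with DESeq2 (which gave 7 of the 16, PARS2 and MARS2 among them, no adjusted p), 1 at an adjusted p under 0.01, and 1 to 3 with 1 library left out, the 1 being without empty-vector replicate 2. Over all genes, 1116 were called higher and 1144 lower (8.11% of 14112), against 467 and 598 with DESeq2 (9.4% lower of the 6364 with an adjusted p), 398 and 261 or 382 and 265 of 13520 with limma, 751 and 714 without empty-vector replicate 1, 859 and 759 without empty-vector replicate 2, and 647 and 633 at an adjusted p under 0.01. The cause was not tested. No enzyme of either class was called higher under any alternative. The replicate numbers are not stated to pair libraries (correlation of same-numbered deviations 0.0703); with the replicate block 17 cytosolic and 4 mitochondrial enzymes were called lower, YARS2 (adjusted p = 0.0432) being the added one. Signs turned for uncalled members: DARS without empty-vector replicate 2 (0.0041; range -0.1027 to 0.0041 over left-out libraries) and with level, length and GC trends removed (0.0052), AIMP1 with level and length trends removed (0.0114), with GC as well (0.0352) and without HOXD13 replicate 1 (0.0818; range -0.1099 to 0.0818), and SARS2 without HOXD13 replicate 1 (0.0392; range -0.1273 to 0.0392). Over single members, 73 calls were lost and 7 gained in 539 results. Of the members, 7 share reads with other genes, and PARS2 and RARS2 rest on 55 to 88 expected counts a library.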

Other observations

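HARS and HARS2, the cytosolic and mitochondrial histidine enzymes, are divergent neighbours, with RefSeq start sites 85 bases apart on chromosome 5 (GRCh38.p14, 140691370 on the minus strand and 140691455 on the plus strand). They were the one head-to-head pair within 1000 bases among the 33 members with a window. Only the first listed start site of each gene was compared. HARS averaged 39.5 ± 0.488 FPKM in HOXD13 libraries and 44.2 ± 0.361 FPKM in empty-vector libraries, and HARS2 26.9 ± 0.806 FPKM in HOXD13 libraries and 28.5 ± 0.573 FPKM in empty-vector libraries (SD, n = 2 each).

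Split into 10 bins of level, all tested genes had a median log2 fold change of 0.14 in the lowest bin and -0.06 in the highest, and 0.567% and 34.5% of their genes were called lower. The highest bin held 13 of 20 cytosolic enzymes and 1 of 16 mitochondrial enzymes.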
